A study of Rattus norvegicus with 31 samples.

Results

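The astrocyte marker genes described here are Gfap, Aqp4, Slc1a2, Slc1a3, Gja1, Gjb6, Glul, Aldh1l1, S100b and Slc4a4, a set chosen for cell type, with earlier results of these data known. They were taken as all probesets that the array annotation assigns to 1 of these symbols alone, which gave 19 of the 16204 probesets in the table and 10 of the 9037 genes it names. A probeset is a set of short probes on the Affymetrix rat array that are read together as 1 value. RNA came from the CA3 region of the hippocampus of aged male Long-Evans rats, on 1 array per rat, with tissue of both hemispheres pooled within the animal. The rats were 24 months old when their memory was assessed, and tissue was taken weeks later. Rats had first been ranked by spatial memory in a water maze as aged impaired (AI) or aged unimpaired (AU), and later swam 8 trials to a visible platform. In the spatial task (S) the platform stayed in place among extramaze cues, and in the non-spatial task (NS) it was moved between trials with the cues taken away. Tissue was collected about 2 hours after the task began. The groups were AI-S (8 rats), AU-S (8 rats), AI-NS (7 rats) and AU-NS (8 rats), so that pooling the tasks gave 15 AI-act and 16 AU-act rats. All rats were old, all had swum before tissue was taken, and the phenotype is a cut on 1 behavioral score.

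Astrocytes clear glutamate from synapses through the transporters encoded by Slc1a2 (GLT-1) and Slc1a3 (GLAST), and convert it to glutamine with glutamine synthetase, the product of Glul. They are joined into a network by gap junctions of the connexins that Gja1 and Gjb6 encode. Water crosses their endfeet through aquaporin-4 (Aqp4), and Slc4a4 carries bicarbonate with sodium across their membrane. Gfap encodes an intermediate filament, S100b a calcium-binding protein and Aldh1l1 a folate enzyme, and all 3 are widely used to mark these cells.

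All 10 genes were measured. Their probeset means over the 31 arrays ranged from 5.88 to 15.02 on the log2 scale of the table. The values are gcRMA signals, and a difference of 1 on this scale is a doubling. Of the genes, 4 had a single probeset in the table, 3 had 2 and 3 had 3. Where a gene had several, the one with the highest mean over all 31 arrays is called its brightest probeset. Signals of different probesets were not read as relative amounts of mRNA, since probes differ in how well they bind. In CA3 tissue, fewer astrocytes and less astrocyte RNA per cell cannot be told apart. The arrays were alike in level, with medians of 8.97 to 9.14, and correlated with each other at 0.981 to 0.989 on average. Differences are AI minus AU in limma, with Benjamini-Hochberg adjustment of p over the whole table. The thresholds were an adjusted p of 0.05 with the tasks pooled and 0.1 within a task.

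With the tasks pooled, 3 of the 19 astrocyte probesets were lower in AI-act than in AU-act rats and 0 were higher. They belong to Gja1, Glul and Slc1a3, and each of these genes also has a brighter probeset that did not pass. Over all probesets, 5% were lower in AI-act (810 of 16204) and 0.512% were higher (83 of 16204). The median difference was -0.06 over the 19 astrocyte probesets and -0.01 over all probesets. Of the 19 differences 14 were below 0, against 53.3% of those over all probesets. None of the brightest probesets of the 10 genes passed in either direction. Their differences lay between -0.15 and 0.03, and the smallest adjusted p among them was 0.349, from Slc1a2. The 95% intervals of these 10 differences ran from -0.32 at the lowest bound to 0.15 at the highest. The brightest probesets of Gja1, Glul, Aqp4 and Slc1a3 had higher means than 99.1% to 99.6% of all probesets. How well signals this high show a difference was not tested. The 9 astrocyte probesets that were not the brightest had a median difference of -0.25, and 8 of the 9 were below 0. Among such probesets of all other genes, 70.3% were below 0, with a median of -0.07. The plot of differences by probeset shows this split within genes.

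**Figure D1:**
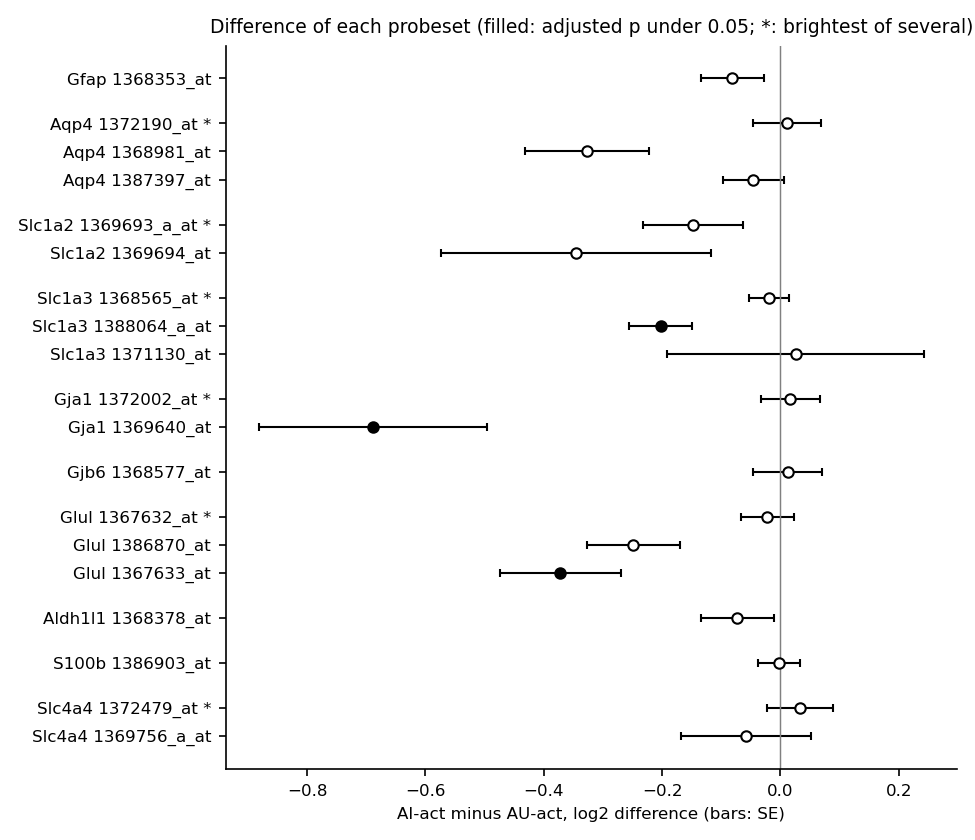
Difference between AI-act and AU-act rats for each of the 19 astrocyte probesets (log2 units, horizontal axis), with bars of 1 SE; filled points have an adjusted p under 0.05 and an asterisk marks the brightest probeset of a gene with several. The 3 filled points are Slc1a3 1388064_a_at at -0.20, Gja1 1369640_at at -0.69 and Glul 1367633_at at -0.37, and the 10 brightest or only probesets lie between -0.15 and 0.03.

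Among the glutamate genes, Slc1a3 was lower in AI-act rats on 1 of its 3 probesets. On 1388064_a_at the lowest, median and highest values were 12.58, 12.68 and 12.96 in AI-S, 12.81, 12.93 and 13.09 in AU-S, 12.33, 12.78 and 12.97 in AI-NS, and 12.86, 12.92 and 13.22 in AU-NS. The groups overlapped, but 10 of the 15 AI rats were below the lowest AU rat and 6 of the 16 AU rats were above the highest AI rat. The pooled difference was -0.20 ± 0.05 (SE), a signal 13.1% lower in AI-act (limma adjusted p = 0.019, n = 15 and 16). The brightest Slc1a3 probeset, 1368565_at, ran from 13.81 to 14.13 in AI-act and from 13.88 to 14.14 in AU-act, a difference of -0.02 with a 95% interval from -0.09 to 0.05. The third probeset, 1371130_at, varied widely between rats, with a within-group SD of 0.62 against a median of 0.18 over all probesets. Its difference was 0.03 ± 0.22 (SE).

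Glul was lower in AI-act rats on 1367633_at. Its lowest, median and highest values were 11.03, 11.65 and 11.94 in AI-S, 11.28, 11.91 and 12.11 in AU-S, 10.85, 11.41 and 12.05 in AI-NS, and 11.71, 11.96 and 12.21 in AU-NS. The ranges overlapped within both tasks, and 12 of the 15 AI rats were below the AU mean. The pooled difference was -0.37 ± 0.10 (SE), 22.7% lower in AI-act (limma adjusted p = 0.026). A second Glul probeset, 1386870_at, had a difference of -0.25 ± 0.08 (SE) with an adjusted p of 0.057, and so did not pass. The brightest, 1367632_at, averaged 14.11 ± 0.09 in AI-act and 14.13 ± 0.14 in AU-act (SD), a difference of -0.02 with a 95% interval from -0.11 to 0.07.

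Slc1a2 did not pass on either probeset. The brighter, 1369693_a_at, had lowest, median and highest values of 8.45, 8.92 and 9.59 in AI-act and 8.71, 9.05 and 9.24 in AU-act rats. AI rats covered the wider range, with an SD of 0.31 against 0.15 in AU, and 4 AI rats lay below every AU rat. Its difference was -0.15 with a 95% interval from -0.32 to 0.03. The dimmer Slc1a2 probeset, 1369694_at, had a difference of -0.35 ± 0.23 (SE).

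Of the connexins, Gja1 was lower in AI-act rats on 1 of its 2 probesets, by more than any other astrocyte probeset. On 1369640_at the lowest, median and highest values were 8.30, 9.46 and 10.60 in AI-S, 9.41, 10.07 and 10.70 in AU-S, 8.09, 9.72 and 10.24 in AI-NS, and 9.60, 10.03 and 10.86 in AU-NS. AI rats reached far below the AU range, with 6 of the 15 below the lowest AU rat, while the upper parts of the ranges overlapped. Its within-group SD of 0.58 was above that of 98.3% of all probesets. The pooled difference was -0.69 ± 0.19 (SE), 37.9% lower in AI-act (limma adjusted p = 0.029), and 13 of the 15 AI rats were below the AU mean. The call was lost when any 1 of 5 arrays was left out, AI-NS replicates 1 and 8, AU-NS replicate 2 and AI-S replicates 3 and 4, with adjusted p between 0.051 and 0.056 and differences between -0.65 and -0.59.

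The brightest Gja1 probeset, 1372002_at, did not pass. It ran from 14.30 to 14.81 with a median of 14.49 in AI-act, and from 14.26 to 14.75 with a median of 14.47 in AU-act. Its difference was 0.02 with a 95% interval from -0.09 to 0.12. Across rats the correlation between the 2 Gja1 probesets, with group means removed, did not pass (Pearson's r = -0.23, permutation p = 0.272, adjusted p = 0.306 over 9 same-gene pairs; Spearman's rho = -0.30, permutation p = 0.13, adjusted p = 0.146; r = -0.29 without the 2 farthest rats). The pair of Slc1a2 probesets had the highest correlation of the 9 (r = 0.83, rho = 0.83, permutation p = 1e-05 for both, the smallest the permutations can give, adjusted p = 9e-05; r = 0.81 without the 2 farthest rats). Gjb6, the other connexin, has 1 probeset, which ran from 10.46 to 10.90 in AI-act and from 10.31 to 11.03 in AU-act. Its difference was 0.01 with a 95% interval from -0.11 to 0.13.

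**Figure D2:**
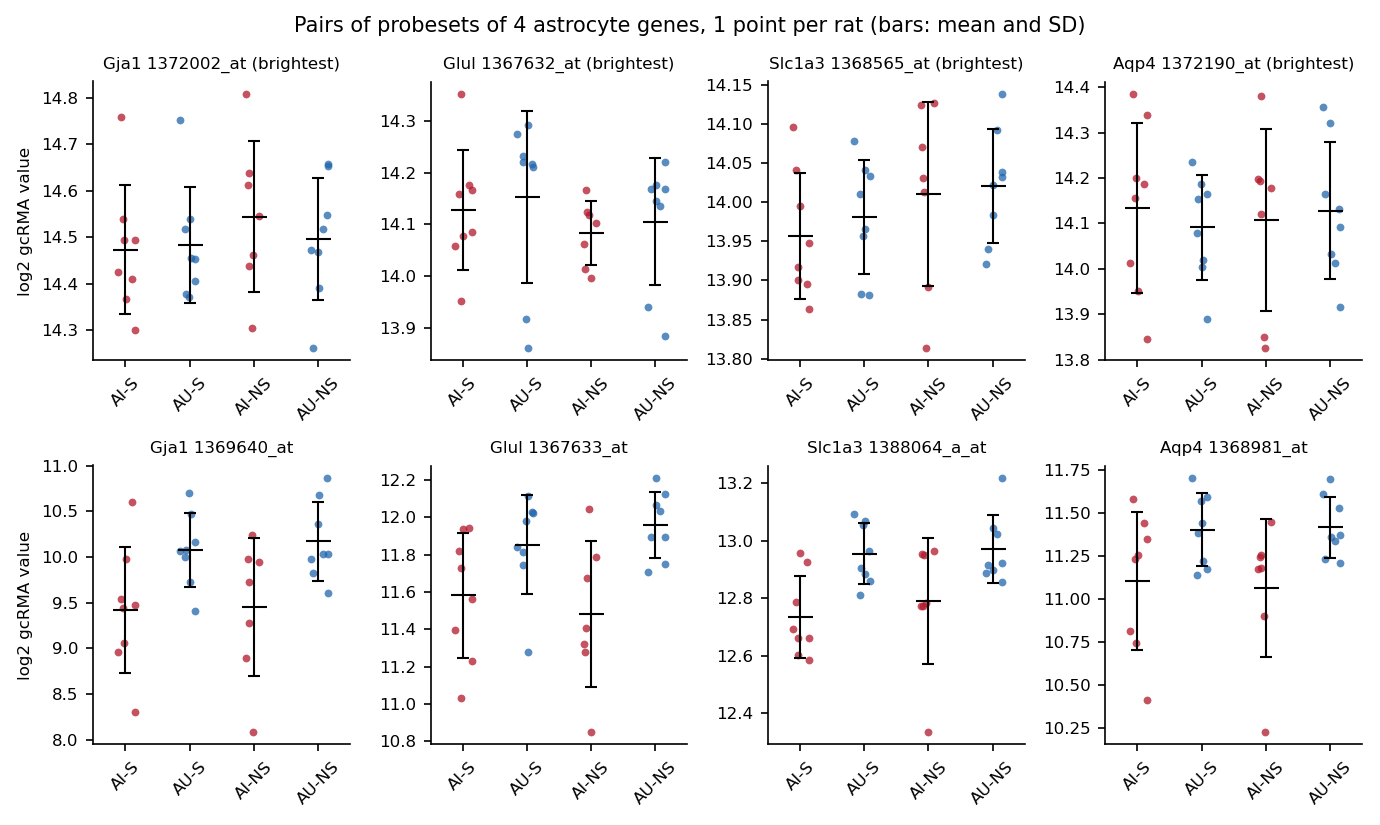
Log2 gcRMA value of each rat (points; red AI, blue AU) by group for the brightest probeset (top row) and another probeset (bottom row) of Gja1, Glul, Slc1a3 and Aqp4, with the group mean and SD as a bar; each panel has its own vertical range. In the bottom row AI rats reach below the AU rats in both tasks, as low as 8.09 for Gja1 against 9.41 in AU, while in the top row the means differ by at most 0.02 with the tasks pooled.

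Aqp4 did not pass on any of its 3 probesets, and 1 of them came close. On 1368981_at the lowest, median and highest values were 10.41, 11.25 and 11.58 in AI-S, 11.14, 11.41 and 11.70 in AU-S, 10.23, 11.18 and 11.45 in AI-NS, and 11.21, 11.37 and 11.70 in AU-NS. All 16 AU rats were above the AI mean, and 5 of the 15 AI rats were below the lowest AU rat. The difference was -0.33 ± 0.10 (SE, limma adjusted p = 0.060). The brightest Aqp4 probeset, 1372190_at, averaged 14.12 ± 0.19 in AI-act and 14.11 ± 0.13 in AU-act (SD), and the third, 1387397_at, averaged 10.72 ± 0.11 in AI-act and 10.76 ± 0.17 in AU-act (SD). Their differences were 0.01 and -0.05.

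Slc4a4 averaged 12.36 ± 0.17 in AI-act and 12.32 ± 0.14 in AU-act (SD) on its brighter probeset, 1372479_at. The difference was 0.03 with a 95% interval from -0.08 to 0.15. On 1369756_a_at the difference was -0.06 ± 0.11 (SE).

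The 3 markers with a single probeset that are not channels or transporters did not pass either. Gfap ran from 13.33 to 13.98 with a median of 13.64 in AI-act, and from 13.56 to 13.93 with a median of 13.72 in AU-act. Of the 15 AI rats 4 lay below the lowest AU rat and 1, in AI-S, lay above the highest. Its difference was -0.08 with a 95% interval from -0.19 to 0.03. S100b ran from 14.86 to 15.17 in AI-act and from 14.87 to 15.18 in AU-act, a difference of -0.00 with a 95% interval from -0.08 to 0.07. Its within-group SD of 0.096 was among the lowest 8.23% of all probesets. Aldh1l1 ran from 8.13 to 8.69 in AI-act and from 8.05 to 8.78 in AU-act, and its difference was -0.07 with a 95% interval from -0.20 to 0.05.

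**Figure D3:**
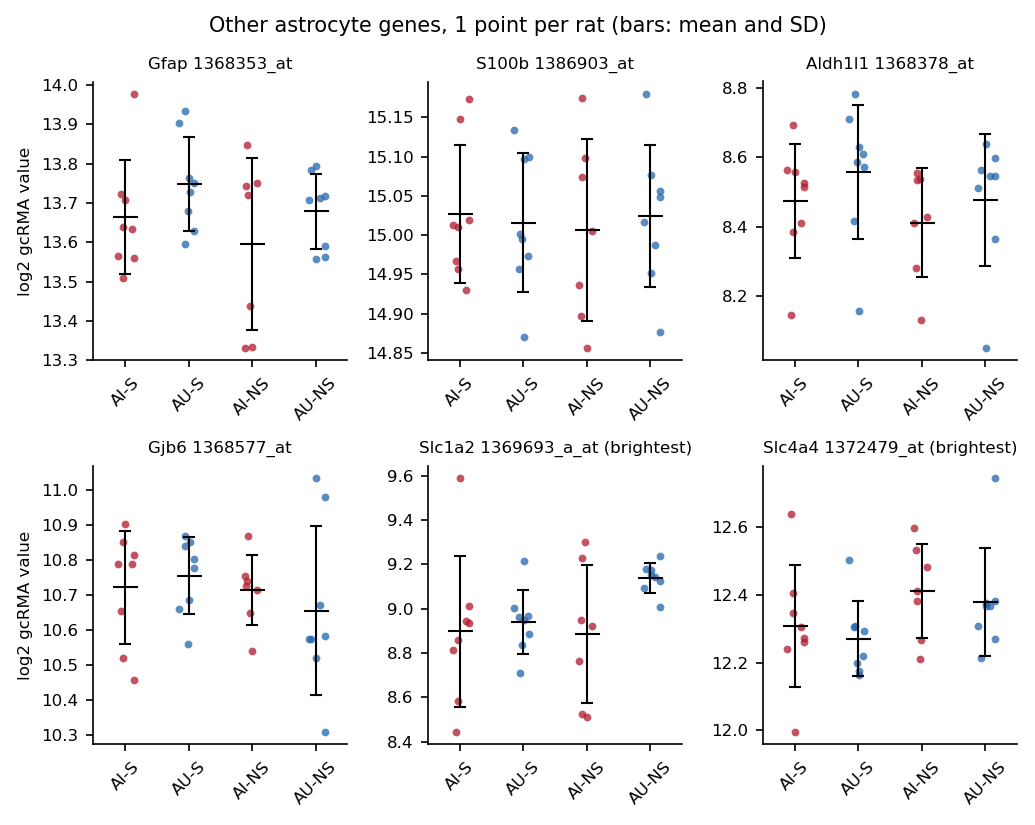
Log2 gcRMA value of each rat (points; red AI, blue AU) by group for Gfap, S100b, Aldh1l1, Gjb6 and the brighter probesets of Slc1a2 and Slc4a4, with the group mean and SD as a bar; each panel has its own vertical range. AI and AU rats overlap in every panel, and none of the 6 differences passed, with the lowest at -0.15 for Slc1a2.

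To set the probesets of a gene against each other within a rat, the value of each other probeset minus that of the brightest was taken on the same array and fitted across all 3205 such pairs in the table. This comparison was chosen after the values had been seen. Of the 9 astrocyte pairs, 5 were lower in AI-act and 0 were higher, where 20.8% of all pairs were lower (668 of 3205) and 1.75% were higher (56 of 3205). For Gja1 1369640_at, the value minus that of the brightest probeset averaged -5.07 ± 0.74 in AI-act and -4.37 ± 0.45 in AU-act (SD), a difference of -0.70 ± 0.21 (SE, limma adjusted p = 0.015). For Aqp4 1368981_at the difference was -0.34 ± 0.08 (SE, adjusted p = 0.0033). The 2 Glul pairs had differences of -0.35 ± 0.09 and -0.23 ± 0.07 (SE, adjusted p = 0.0085 and 0.026). Slc1a3 1388064_a_at had -0.18 ± 0.05 (SE, adjusted p = 0.0090). In these 5 pairs 13 or 14 of the 15 AI rats were below the AU mean. The table-wide pattern had the same direction. Among all other genes with several probesets, 3.10% of the brightest probesets (74 of 2388) and 16.8% of the others (536 of 3196) were lower in AI-act.

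For 2 housekeeping genes, beta-actin and Gapdh, the arrays hold control probesets at either end of the transcript. Where RNA is shorter, the signal at the 3′ end exceeds that at the 5′ end by more. This control difference (3′ minus 5′, mean of both genes) was 1.59 ± 0.13 in AI-act and 1.45 ± 0.10 in AU-act (SD, n = 15 and 16; difference 0.14, two-sided permutation test, p = 0.00068). It was 1.59 ± 0.10 in AI-S and 1.48 ± 0.10 in AU-S (p = 0.0502), and 1.60 ± 0.16 in AI-NS and 1.42 ± 0.09 in AU-NS (p = 0.0059; exact permutation tests, SD). On the hexokinase controls it was 1.79 ± 0.27 in AI-act and 1.41 ± 0.15 in AU-act (SD, permutation p = 2e-05, the smallest the test can give). Several astrocyte probesets moved with it from rat to rat.

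After removal of group means, over 31 rats, 5 of the 19 astrocyte probesets had a Pearson correlation with the control difference at an adjusted p under 0.05 over the 19, all of them negative. For Gja1 1369640_at r was -0.71 (permutation p = 0.00014, adjusted p = 0.0027; rho = -0.69, permutation p = 7e-05, adjusted p = 0.00086; r = -0.70 without the 2 farthest rats). Slc1a3 1388064_a_at had r = -0.72 (permutation p = 0.00028, adjusted p = 0.0027; rho = -0.68, permutation p = 9e-05, adjusted p = 0.00086; r = -0.61 without the 2). Glul 1367633_at had r = -0.64 (permutation p = 0.00097, adjusted p = 0.0061; rho = -0.63, permutation p = 0.0004, adjusted p = 0.0025; r = -0.60 without the 2). Aqp4 1368981_at had r = -0.61 (permutation p = 0.0030, adjusted p = 0.014; rho = -0.43, permutation p = 0.021, adjusted p = 0.058; r = -0.51 without the 2), and Glul 1386870_at had r = -0.50 (permutation p = 0.011, adjusted p = 0.041; rho = -0.54, permutation p = 0.0033, adjusted p = 0.016; r = -0.55 without the 2). Within-gene differences passed for these 5 probesets as well, and not for Slc4a4 1369756_a_at (limma adjusted p = 0.598). With the hexokinase controls in place of these, Glul 1386870_at did not pass (r = -0.34, permutation p = 0.118, adjusted p = 0.32; rho = -0.36, permutation p = 0.0704, adjusted p = 0.191) and Slc4a4 1369756_a_at did (r = -0.59, permutation p = 0.0028, adjusted p = 0.018; rho = -0.43, permutation p = 0.0254, adjusted p = 0.0804), while the other 4 passed with r between -0.66 and -0.54. With Gapdh and beta-actin, the r of the 5 lay between -0.89 and -0.67 within AI and between -0.55 and -0.08 within AU, a contrast that was not tested. Of all probesets 6.20% had an r below -0.5, and the median r over all probesets was -0.03. That limit is not the rule behind the 5 astrocyte probesets, and Glul 1386870_at, at -0.498, was not below it. The share of all probesets with an adjusted p under 0.05 is not given here. Slc1a2 1369694_at passed by rho alone (rho = -0.49, permutation p = 0.0103, adjusted p = 0.039). Its r was -0.41 (permutation p = 0.0431, adjusted p = 0.102), and -0.27 without the 2. With hexokinase its rho was -0.60 (permutation p = 0.0020, adjusted p = 0.012) and its r -0.50 (permutation p = 0.0181, adjusted p = 0.0573).

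With the control difference as a covariate, 0 of the 19 astrocyte probesets passed between AI-act and AU-act, 0 at an unadjusted p under 0.05, and the SAM statistic was not run in that fit. Over all probesets measured, 1 of 16204 passed in that fit, and 11.8% had an unadjusted p under 0.05. The differences were then -0.18 ± 0.17 for Gja1 1369640_at, -0.13 ± 0.10 for Glul 1367633_at and -0.07 ± 0.05 for Slc1a3 1388064_a_at (SE). Phenotype and the control difference overlap in these rats, and the part of either in the astrocyte values was not tested. None of the 10 brightest or only probesets had an r that passed, and their r lay between -0.44 and 0.04. The lowest was Slc1a2 1369693_a_at (permutation p = 0.0286, adjusted p = 0.0776), with rho = -0.32 (permutation p = 0.104, adjusted p = 0.198) and r = -0.28 without the 2 farthest rats. Slc1a3 1368565_at had r = -0.37 (permutation p = 0.0822, adjusted p = 0.174) and rho = -0.40 (permutation p = 0.0359, adjusted p = 0.0853). For Gja1 1372002_at r was -0.02 (permutation p = 0.919, adjusted p = 0.919). Its rho was 0.04 (permutation p = 0.822, adjusted p = 0.961), and its r 0.16 without the 2 farthest rats.

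**Figure D4:**
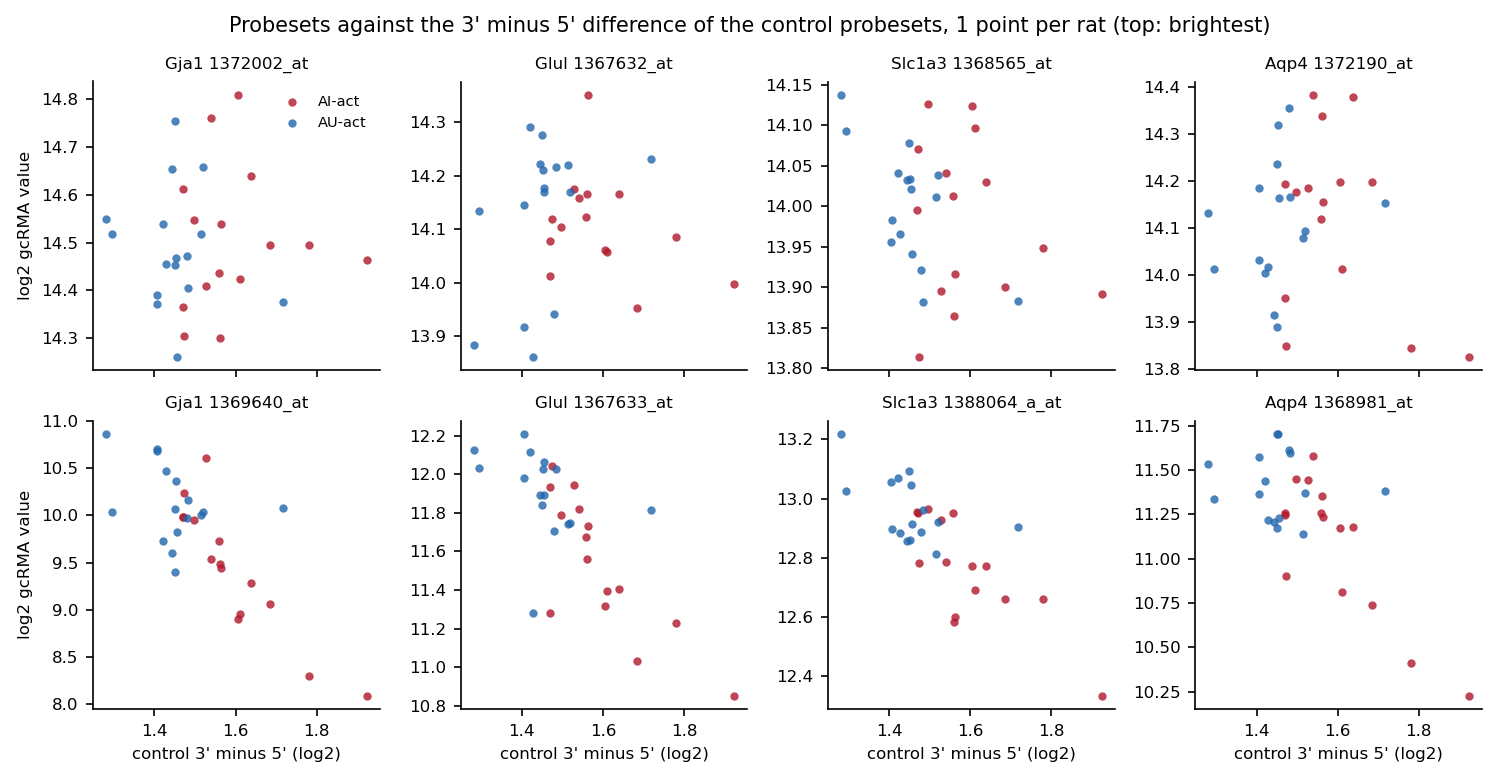
Log2 gcRMA value of each rat (vertical axis) against the control difference (3′ minus 5′, mean of beta-actin and Gapdh; horizontal axis, log2 units) for the brightest (top row) and another probeset (bottom row) of Gja1, Glul, Slc1a3 and Aqp4; red points are AI-act rats and blue points AU-act rats. In the bottom row values fall as the control difference grows (r between -0.72 and -0.61 with group means removed), and the AI rats extend to the highest control difference, 1.92.

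Within each task, 0 of the 19 astrocyte probesets passed an adjusted p of 0.1. In the spatial task 0.413% of all probesets passed between AI-S and AU-S (67 of 16204), and between AI-NS and AU-NS 0% did. The 3 probesets that passed with the tasks pooled were below 0 within each task, on the same arrays. Gja1 1369640_at had a difference of -0.66 ± 0.26 between AI-S and AU-S and -0.72 ± 0.28 between AI-NS and AU-NS (SE). Glul 1367633_at had -0.27 ± 0.14 in the spatial and -0.48 ± 0.14 in the non-spatial task (SE). Slc1a3 1388064_a_at had -0.22 ± 0.07 in the spatial and -0.18 ± 0.09 in the non-spatial task (SE). An unadjusted p under 0.05 was found for 2 of the 19 in the spatial and 5 of the 19 in the non-spatial task, against 12.3% and 11.5% of all probesets in those tasks. With a control difference as covariate, some of these differences turned above 0, at 0.01 ± 0.35 for Gja1 1369640_at and 0.10 ± 0.19 for Glul 1367633_at in the spatial task with hexokinase, and 0.04 ± 0.07 for Slc1a3 1388064_a_at in the non-spatial task with Gapdh and beta-actin (SE). Others did not. In the non-spatial task Gja1 1369640_at and Glul 1367633_at stayed below 0 with either covariate. Their highest differences among 13 alternative fits, covariates included, were -0.0064 and -0.16.

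The task itself made no difference that passed for an astrocyte probeset. Between AI-S and AI-NS 0% of all probesets and 0 of the 19 passed in limma, with 0 of the 19 and 4.09% of all probesets at an unadjusted p under 0.05. Between AU-S and AU-NS 0% of all probesets and 0 of the 19 passed, with 1 of the 19 and 8.12% of all probesets at an unadjusted p under 0.05. That probeset was Slc1a2 1369693_a_at, which ran from 8.71 to 9.21 with a median of 8.96 in AU-S, and from 9.01 to 9.24 with a median of 9.15 in AU-NS, a difference of -0.20 ± 0.06 (SE, limma adjusted p = 0.605). The interaction, which tests whether the AI minus AU difference differed between the tasks, was passed by 0% of all probesets and by 0 of the 19, with 0 of the 19 and 2.44% of all probesets at an unadjusted p under 0.05. For Gja1 1369640_at its 95% interval ran from -0.75 to 0.88, so that differences between tasks of such a size could not have been seen.

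From rat to rat most correlations between the astrocyte genes were low. Over the 45 pairs of brightest or only probesets, with group means removed, Pearson's r had a median of 0.05 and ran from -0.41 to 0.73. Of the pairs, 4 had an adjusted p under 0.05 over the 45 by Pearson's r, and each of them passed by rho too. Gja1 and Slc4a4 had r = 0.73 (permutation p = 3e-05, adjusted p = 0.00135; rho = 0.59, permutation p = 0.0012, adjusted p = 0.0195; r = 0.62 without the 2 farthest rats). Within AI their r was 0.82 and within AU 0.62. Slc1a3 and Gja1 had r = 0.64 (permutation p = 0.00024, adjusted p = 0.0054; rho = 0.60, permutation p = 0.0013, adjusted p = 0.0195; r = 0.65 without the 2). Aldh1l1 and S100b had r = 0.62 (permutation p = 0.00055, adjusted p = 0.0083; rho = 0.65, permutation p = 0.00033, adjusted p = 0.015; r = 0.58 without the 2), and Gfap and Aqp4 had r = 0.57 (permutation p = 0.0031, adjusted p = 0.035; rho = 0.54, permutation p = 0.0044, adjusted p = 0.040; r = 0.62 without the 2). Slc1a3 and Slc4a4 had r = 0.42 and did not pass (permutation p = 0.0244, adjusted p = 0.183; rho = 0.43, permutation p = 0.0242, adjusted p = 0.181; r = 0.41 without the 2). Glul and Aldh1l1 passed by rho alone (rho = 0.51, permutation p = 0.0042, adjusted p = 0.040). Their r was 0.40 (permutation p = 0.0427, adjusted p = 0.249), and 0.28 without the 2. Within AI and within AU, the r of the 4 pairs that passed by Pearson's r lay between 0.44 and 0.82. The arrays share their normalization, which can itself make probesets vary together.

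**Figure D5:**
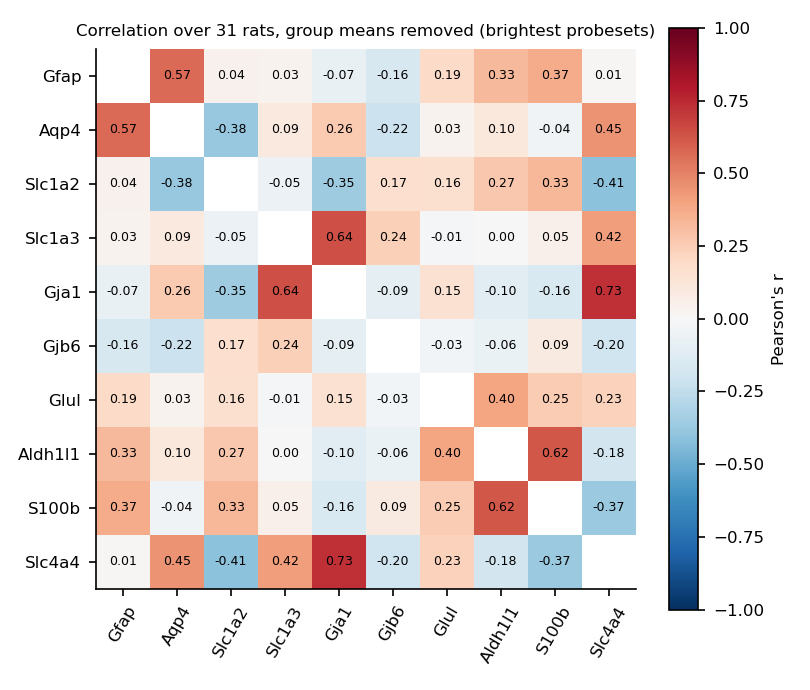
Pearson's r over 31 rats, with group means removed, between the brightest or only probesets of the 10 astrocyte genes (rows and columns), colored from -1 (blue) to 1 (red) with the value in each cell. The highest cell is Gja1 with Slc4a4 at 0.73, and the median of the 45 pairs is 0.05.

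The promoter windows of Gja1 and Slc4a4, the pair with the highest correlation, are shown as the DNA around the annotated starts of these 2 transcripts. The sequences are from RefSeq on GRCr8 and run from 250 bases before to 50 after an annotated start, read 5′ to 3′ on the gene's strand. A promoter was listed for all 10 astrocyte genes. Capitals mark matches to TTGGC, the half-site of nuclear factor I, on either strand. ACAAAG, the core bound by SOX factors, and TTCNNNGAA, the motif of STAT factors, were searched on both strands as well. No position was shared between motifs in the sequences shown.
Gja1 (GRCr8, chr20:36302314-36302613, plus strand): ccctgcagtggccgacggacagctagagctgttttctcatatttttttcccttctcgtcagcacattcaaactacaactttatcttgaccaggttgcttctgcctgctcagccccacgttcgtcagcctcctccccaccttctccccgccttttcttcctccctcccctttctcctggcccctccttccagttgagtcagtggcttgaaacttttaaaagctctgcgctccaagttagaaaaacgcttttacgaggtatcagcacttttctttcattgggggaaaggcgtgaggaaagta
Slc4a4 (GRCr8, chr14:19468233-19468532, minus strand): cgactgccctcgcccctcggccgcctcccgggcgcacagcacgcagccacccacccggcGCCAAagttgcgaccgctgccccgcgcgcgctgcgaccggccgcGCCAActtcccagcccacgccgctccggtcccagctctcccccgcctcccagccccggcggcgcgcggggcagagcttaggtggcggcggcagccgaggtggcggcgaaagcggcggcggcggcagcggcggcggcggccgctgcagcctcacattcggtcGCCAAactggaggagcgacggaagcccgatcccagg
The Gja1 window held none of the 3 motifs, and the Slc4a4 window held 3 matches to TTGGC. Over all 33469 windows of this length, 45.8% held TTGGC, 18.8% ACAAAG and 8.87% TTCNNNGAA. The 10 astrocyte genes had 16 such windows in all, some of them overlapping, of which 8 held TTGGC, 5 held ACAAAG and 0 held TTCNNNGAA. These are matches of letters and were not measured as binding.

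Other genes of astrocytes and of their pathways were counted on the brightest probeset of each, where 185 of 9037 genes were lower and 28 were higher in AI-act. Of 38 other astrocyte genes measured, 2 were lower and 0 were higher, with a median difference of -0.03 against -0.00 over all genes. Kcnj10, the inward rectifier channel that takes up potassium, averaged 6.29 ± 0.53 in AI-act and 6.97 ± 0.39 in AU-act (SD), a difference of -0.69 ± 0.16 (SE, limma adjusted p = 0.0080). Acsl6, which activates long-chain fatty acids, averaged 10.81 ± 0.23 in AI-act and 11.03 ± 0.10 in AU-act (SD), a difference of -0.22 ± 0.06 (SE, limma adjusted p = 0.029). Nfia, a transcription factor of astrocyte development, had 0.18 ± 0.08 (SE, adjusted p = 0.178). Kcnj10 and Acsl6 had an r with the control difference of -0.53 and -0.64, the part of which in their values was not tested.

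Of the 13 reactive astrocyte genes measured, 0 passed, and 10 of the 13 differences were above 0 with a median of 0.08. Over all genes, 51.7% of the differences were below 0. The smallest p was that of Ggta1 (0.22 ± 0.10, SE, adjusted p = 0.241), followed by the small heat shock protein Hspb1 (0.29 ± 0.14, adjusted p = 0.270) and S100a10 (0.18 ± 0.09, adjusted p = 0.279). Of the 13 genes of the glutamate and GABA-glutamine cycle, 1 was lower and 0 were higher. It was Gad2, which makes GABA from glutamate and is a gene of interneurons, at -0.48 ± 0.14 (SE, limma adjusted p = 0.039). Glud1, glutamate dehydrogenase, had -0.14 ± 0.06 and the vesicular glutamate transporter gene Slc17a7 had -0.21 ± 0.11 (SE), and neither passed. None passed among 3 connexin and pannexin genes, 8 genes of the dystrophin complex and endfoot anchors, 11 genes of bicarbonate and acid-base transport, 5 genes of folate and one-carbon enzymes and 5 genes of the S100 family. Their median differences were 0.07, -0.04, -0.02, 0.00 and 0.08, in that order.

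Markers of other cells in the tissue were read in the same way. Of 12 neuron markers 1 was lower and 0 were higher, with a median of -0.09, and the mean level of the list ran from 13.02 to 13.29 in AI-act and from 13.14 to 13.30 in AU-act. The gene that passed was Syt1, the calcium sensor of synaptic vesicles (-0.28 ± 0.07, SE, limma adjusted p = 0.014). The r with the control difference was -0.71 for Syt1 and -0.47 for Gad2, and its part in their values was not tested. Of 10 interneuron markers 1, Gad2 again, was lower, with a median of -0.00. For 10 oligodendrocyte, 4 oligodendrocyte precursor, 7 microglia, 9 endothelial and 7 mural and fibroblast markers 0 passed, with medians of -0.07, -0.02, 0.07, -0.06 and 0.03. Counted over all their probesets, 3 of 18 were lower for the oligodendrocyte markers, 2 of 19 for neurons, 2 of 12 for interneurons and 1 of 8 for CA3. It was 2 of 19 for the glutamate cycle, 2 of 16 for the dystrophin complex and 7 of 52 for other astrocyte genes. In the same count the 10 astrocyte genes had 3 of 19, against 5% of all probesets. None were lower among 18 reactive astrocyte, 15 bicarbonate, 7 folate, 5 S100 and 3 connexin probesets. Nor were any among 12 endothelial, 8 microglia, 7 mural and fibroblast, 6 dentate granule, 6 CA1 and 4 oligodendrocyte precursor probesets. Microglia markers were above 0 in 7 of 7 genes, none of which passed, where 51.7% of all genes were below 0. Their mean level ran from 9.06 to 10.27 in AI-act and from 9.14 to 9.89 in AU-act. Among markers of hippocampal fields, 0 of 5 dentate granule, 0 of 5 CA1 and 0 of 7 CA3 markers passed, CA3 being the field dissected. Their medians were 0.02, -0.01 and -0.06, in that order. The dentate granule median was 0.13 in the spatial and -0.13 in the non-spatial task. The mean level of the 10 astrocyte genes ran from 12.38 to 12.65 in AI-act and from 12.50 to 12.73 in AU-act. The part of these cell types in the astrocyte values was not tested. None of the 8 choroid and ependyma markers is in the table used here.

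The probesets most like the astrocyte genes were sought by their correlation, over 31 rats with group means removed, with the mean of the 10 brightest or only probesets. Among 12223 probesets of other single genes the median r was 0.08. The 10 highest, between 0.73 and 0.80, were those of Plxnb1, C11h3orf70, Sin3a, Chd1, Dpf2, Sec22b, Ube2g2, Eef2k, Lgi4 and Slc25a18. Plxnb1 encodes a semaphorin receptor, Lgi4 a secreted protein of glia and Slc25a18 a mitochondrial glutamate carrier, and 1 of the 10, Slc25a18, was in the list of other astrocyte genes. Between AI-act and AU-act, 1 of the 10 passed, Ube2g2, a ubiquitin-conjugating enzyme, at -0.43 ± 0.11 (SE, limma adjusted p = 0.013). Over all probesets 5% were lower (810 of 16204) and 0.512% were higher (83 of 16204). The part of the control difference in the Ube2g2 values was not tested.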

How the data were processed

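RNA from CA3 was measured on Affymetrix rat genome arrays in 31 rats, and groups were taken from the sample labels. The deposited values are log2 signals that the authors made with gcRMA (background correction, quantile normalization and summary over the probes of a probeset); its version is not given in the sources used here. Quantile normalization makes the arrays alike in distribution, though not identical in this table, and so reduces any shift common to most probesets. Arrays give no counts, and their number limits the precision. 0 columns of other samples were in the table. The study left out 1 AI-NS array.

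Genes were named through the array annotation, with 12242 probesets of 1 gene, 293 of several and 3669 with none listed. No probeset had a mean under 4, the lower limit set, and the smallest mean in the table was 5.00. The array holds more probesets than the table, so dim probesets of the members or of other listed genes may be missing here. Comparisons used limma 3.58.1 under R 4.3.3 (two-sided moderated tests), with the code tested on simulated data first. Correlations and control differences were tested in Python 3.11.15 by permutation (100000 resamples, or exact within a task). The pooled comparison and those within a task share their arrays. All 19 member probesets, up to 3 genes with the smallest p of each of 19 other gene lists (named where they bear on a result), and the 10 most alike probesets are reported. The members and lists were chosen with earlier results of these data known. Alternatives were other intensity limits, priors, normalizations, array weights, a replicate block, RNA control or dissection covariates, SAM, a task term, a fit of all 4 groups, and each array left out. Each array is 1 rat, and hybridization batches and positions of probes along transcripts are not used here.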

Additional observations from a re-analysis of the deposited data

Results flagged for a closer look

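In 12 of 76 sets of values (19 probesets in 4 groups), 1 rat stood apart from the rest of its group by Dixon's test, which chance does in about 1 of 20 sets. The sets share the same rats, and some probesets share a gene, so they are not independent. The count of 12 can therefore not be read as an excess over 1 of 20. Of these, 5 were in AU-S, 3 in AU-NS, 3 in AI-S and 1 in AI-NS.

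Gfap was highest in AI-S replicate 2, at 13.98, where the next rat had 13.72. Aqp4 1387397_at was highest in AI-S replicate 5, at 10.95 against 10.76 in the next. Slc4a4 1369756_a_at was lowest in AI-S replicate 6, at 7.56 against 8.35. Slc1a3 1388064_a_at was lowest in AI-NS replicate 8, at 12.33 against 12.77, and the control difference of that rat, 1.92, was the highest of all 31.

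In AU-S, replicate 1 was lowest on both of the dimmer Glul probesets, at 12.14 against 12.52 on 1386870_at and 11.28 against 11.74 on 1367633_at. Replicate 2 of AU-S was highest on the brightest probesets of Gja1 (14.75 against 14.54) and Slc4a4 (12.50 against 12.31), the pair of genes with the highest correlation. Slc1a2 1369694_at was lowest in AU-S replicate 5, at 4.99 against 5.71. In AU-NS, replicate 1 was highest on Slc1a2 1369694_at (7.68 against 6.46) and Slc4a4 1372479_at (12.75 against 12.38), and replicate 4 was lowest on Aldh1l1 (8.05 against 8.36).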

How the results depend on the processing

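A direction was compared only where a value passed its threshold as reported or under the alternative, and none of the values so compared changed direction. Values that passed in neither could change sign. Between AI-act and AU-act, where 3 astrocyte probesets passed, 5 passed with array weights and with the SAM statistic, and 0 passed with the Gapdh and beta-actin control difference, with the hexokinase control difference (added after the data were seen) or with the replicate number as a block. Over all 16204 probesets, where 893 passed as reported, these fits gave 1287 with array weights, 984 lower and 145 higher with SAM, 1 and 0 with the covariates and 591 with the block. In the fit with the block the 3 adjusted p were 0.053 for Slc1a3, 0.058 for Glul and 0.075 for Gja1. By correlation the numbers did not pair the rats, since at most 2 of the 7 or 8 same-numbered pairs of any comparison exceeded 0.1. The study drew its rats from several separate behavioral runs, and the labels do not give the run of each rat. This check could not show whether rats shared a run. No sharing of litter or day is given. Other limits on intensity, another prior, both other normalizations and a task term gave 3, and dissection scores gave 4. Without 1 array the count ran from 2 to 5, with 5 reached without AI-NS replicate 6, AI-S replicate 1 or AI-S replicate 7. Between AI-S and AU-S it ran from 0 to 2 without 1 array, with 1 (Slc1a3) without AI-S replicate 1 and 2 (Slc1a3 and Gja1) without AI-S replicate 7, and was 1 (Slc1a3) with array weights. Over all probesets the 67 of that comparison became 9 and 12 with the other normalizations, 551 with array weights, 3 with the replicate block, 1 with the Gapdh and beta-actin covariate or dissection scores and 0 with the hexokinase covariate. Between AI-NS and AU-NS it ran from 0 to 1 without 1 array, reached (Glul) without AI-NS replicate 3, and over all probesets the count of 0 became 40 with array weights and 163 with all 4 groups in the fit. The task comparisons and the interaction gave 0 under each alternative run. The within-gene count of 5 became 0 with either control covariate and 4 with the replicate block, where the 724 of all 3205 pairs became 2 (Gapdh and beta-actin), 0 (hexokinase) and 543 (block), and stayed at 5 without any 1 array. The control difference between AI-S and AU-S was 0.18 on beta-actin alone (exact permutation p = 0.023) and 0.40 on hexokinase alone (exact permutation p = 0.00078), which passed, and 0.034 on Gapdh alone (exact permutation p = 0.39), which did not. The median correlation among the genes lay between 0.04 and 0.07 under its 3 alternatives. The causes of these changes were not tested. Slc1a2 1369694_at, Slc1a3 1371130_at and Gja1 1369640_at had the highest SD within groups of the 19, which limits what could be seen in them.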
